A study of Mus musculus with 6 samples.

Results

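The Mvt1 cell line is a mouse mammary carcinoma line of the FVB/N strain, and its cells had been sorted by flow cytometry into CD24- cells, which lack the CD24 protein on the surface, and CD24+ cells, which carry it. Messenger RNA was sequenced from 3 plates of each sorted group, both grown in the same medium, with no treatment or time point in the labels. Both groups come from 1 cell line, so a difference tied to CD24 cannot be told apart from others that separate the sorted populations. Described here are the genome windows that the authors annotated as microRNAs (names starting mmu-mir or mmu-let), as snmRNA, or as LIT with a number. They were chosen by name alone and numbered 206 of 16024 annotations, with 130 microRNA, 47 snmRNA and 29 LIT annotations. The position given for a window is the span of the reads under its name. The abbreviations snmRNA and LIT are kept as in the files, which do not spell them out.

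A microRNA is cut from a longer primary transcript in 2 steps. Drosha with Dgcr8 frees a hairpin in the nucleus, Dicer1 trims it in the cytoplasm, and an Argonaute protein holds the mature strand, whose seed (bases 2 to 8) pairs with target messenger RNAs. Many hairpins lie inside introns or exons of host genes, and small nucleolar RNAs (snoRNAs), which guide modification of ribosomal RNA, likewise come from introns of host genes. A library of messenger RNA fragments does not capture mature microRNAs. Each read here was 47 nt long, and the mature sequences listed for these annotations were 16 to 24 nt long. A read counted under a microRNA name therefore came from a longer RNA whose sequence was mapped to that window.

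The mature sequences show what each name stands for. Given here are 4 of them, as examples of windows whose reads match abundant messenger RNAs. They are printed 5′ to 3′ from RefSeq with the GRCm38.p6 annotation, with the seed in capitals.
miR-703: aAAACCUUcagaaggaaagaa
miR-692: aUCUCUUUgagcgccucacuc
miR-682: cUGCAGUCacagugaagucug
miR-686: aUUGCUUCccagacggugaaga
No 2 of these 4 share a seed. Each was found in sense within the transcript of a gene abundant in these cells. The sequence of miR-703 lay in the 3′ untranslated region of Eef1a1, a translation elongation factor. The sequence of miR-692 lay in the coding sequence of Ftl1, the ferritin light chain. That of miR-682 lay in the coding sequence of Rpl37a, a ribosomal protein, and that of miR-686 in the coding sequence of Psmb5, a proteasome subunit. Of these 4, only miR-686 had its matched gene as annotated host. RefSeq places miR-703 on chromosome 5, miR-692 on chromosomes 4 and 17 and miR-682 on chromosome 13. Eef1a1, Ftl1 and Rpl37a lie on chromosomes 9, 7 and 1. Of the 31817 reads of mir-703.2 and the 21024 of mir-692-2.5, 0 lay wholly inside the hairpin of that name. Windows on the chromosome that RefSeq gives for the microRNA had such reads. These were 431 of 753 for mir-703.1, 125 of 7454 for mir-682.1 and 290 of 1347 for mir-686.1. So did mir-703.3 on chromosome 17, with 37 of 19128.

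Deposited reads make this visible. The most frequent read of 3 of these annotations that holds the mature sequence is printed 5′ to 3′ on the strand of the gene, with the mature sequence in capitals.
mir-682.1, chr13:75782547-75782593 (mm9, plus strand): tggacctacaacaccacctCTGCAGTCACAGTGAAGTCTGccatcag
mir-692-2.5, chr7:52713479-52713525 (mm9, minus strand): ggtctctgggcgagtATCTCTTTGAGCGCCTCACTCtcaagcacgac
mir-686.1, chr14:55235573-55235619 (mm9, minus strand): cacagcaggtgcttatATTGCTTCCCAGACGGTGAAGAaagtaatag
The mir-682.1 read was counted 120 times, the mir-692-2.5 read 200 times and the mir-686.1 read 24 times over the 6 libraries. On both sides of the capitals the 3 reads ran on in the coding sequence of Rpl37a, Ftl1 and Psmb5. Of the 7454 reads of mir-682.1, 31.1% held the whole mature sequence on either strand, against 13.5% of the 21024 reads of mir-692-2.5, 25.7% of the 1347 of mir-686.1 and 49.9% of the 31817 of mir-703.2. The other reads held only part of the mature sequence or none of it.

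The libraries held 9046025 to 25692147 mapped reads, with CD24+ replicate 1 the shallowest. Cd24a, the gene of the sorted protein, read 5.13 to 8.97 CPM (counts per 1000000 mapped reads) in CD24- libraries and 51.5 to 61.8 CPM in CD24+ libraries. CD24+ replicate 1 stood apart in mitochondrial reads, with 3.70% of its reads on chrM against 1.95% to 2.41% in the other 5 libraries. The large-subunit rRNA annotation held 0.723% to 0.804% of the reads of CD24- libraries and 1.02% to 1.95% of those of CD24+ libraries. CD24+ replicate 2 was the library with the most rRNA (3.51% of its reads), with 1.56% in the small-subunit annotation against 0.0716% to 0.187% in the other 5. The cells are labelled mammary epithelial cancer cells. Of the 7 epithelial markers, the keratins Krt8 and Krt18 were at 909 ± 61.1 and 542 ± 29.3 CPM in CD24- and at 430 ± 34.3 and 154 ± 9.41 CPM in the CD24+ group (SD, n = 3 each), while Krt5, Krt14, Cdh1 and Epcam had at most 0.141 CPM in any library. The seventh, the tight junction gene Cldn3, was higher in CD24+ cells, at 0.390, 0.493 and 0 CPM in CD24- and 2.32, 1.31 and 1.71 CPM in CD24+ libraries, and it passed the filter on low counts only through the CD24+ libraries. The summed level of these 7 was 1350 to 1510 CPM in CD24- and 547 to 634 CPM in CD24+ libraries. The summed level of the 5 fibroblast markers with a row, of 6 listed, was 6.71 to 11.9 CPM in CD24- and 45.5 to 72.7 CPM in CD24+ libraries. Most of the CD24+ sum was Pdgfrb, at 3.56 ± 0.936 CPM in CD24- and 48.3 ± 11.8 CPM in CD24+ (SD, n = 3 each). Col1a1 and Col1a2 passed the filter only through the CD24+ libraries. The sum of 4 endothelial markers was 1.66 to 2.96 and 0.506 to 1.33 CPM. Of these, Cdh5 stood at 1.37 ± 0.281 and 0.177 ± 0.135 CPM, passing the filter only through the CD24- libraries, and Pecam1, Kdr and Tek overlapped.

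The 206 annotations together took 0.253% to 0.398% of the mapped reads of a library, 288595 reads in all. Most of that came from few windows. The 12 with the most reads held 90.8% of the reads, and 40 annotations had a single read in all 6 libraries together. The low-count filter left 59 annotations (31 microRNA, 21 snmRNA, 7 LIT) for testing in edgeR, and these held 99.5% of the reads. The 147 that were not tested had 1 to 63 reads each, with a median of 4.

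The reads of most tested windows matched known longer transcripts. For 50 of the 59, at least 90% of the reads matched 1 gene other than a microRNA in the GENCODE M21 transcripts, letter for letter. Of these 50, 41 matched a protein-coding gene, and 12 of the 50 lay on another chromosome than the gene they matched. Of the reads of tested annotations, 54.4% fell in coding sequence, 27.3% in 3′ untranslated regions, 0.228% in 5′ untranslated regions and 3.30% in noncoding transcripts. The remaining 14.7% matched no such transcript. Among the 22 tested annotations with 1000 reads or more, the share of reads on the plus strand ran from 0% to 87.5%. The library kit does not mark strand.

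**Figure D1:**
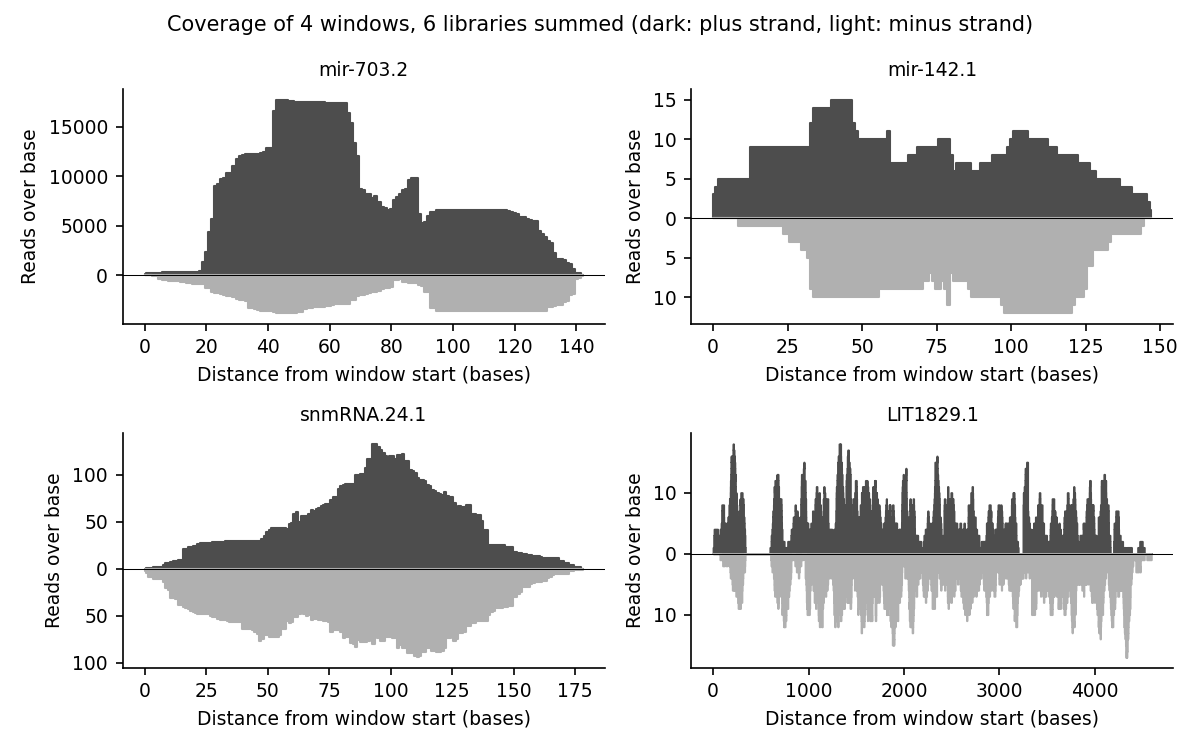
Reads over each base of 4 windows, summed over the 6 libraries, against the distance in bases from the window's first base (dark, plus strand, upward; light, minus strand, downward). Each window spans the reads under its name, so its first and last bases are covered by definition. Reads lay in both directions. Coverage had no gap along mir-703.2, mir-142.1 and snmRNA.24.1 and ran over most of the 4593 bases of LIT1829.1. It was uneven along mir-703.2, highest at a distance of 42 to 65 bases.

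The abundant microRNA names stood for housekeeping messenger RNAs and for rRNA. The 4 tested mir-703 annotations held 60273 reads, 20.9% of all reads of the 206, and nearly all reads of 3 of them matched Eef1a1 (42.5% for mir-703.1). The 3 matched to Ftl1 held 8.15%, and mir-682.1, matched to Rpl37a, held 2.58%. None of these passed the test between the groups. Annotation mir-703.2 (chr9:78326345-78326487, mm9) had 346, 381 and 274 CPM in CD24- replicates 1 to 3 and 360, 291 and 322 CPM in CD24+ replicates 1 to 3. The groups of mir-703.2 overlapped, and the log2 fold change (CD24+ over CD24-) was -0.04 with a standard error (SE) of 0.13. Eef1a1 under its own symbol had a log2 fold change of -0.05 (SE 0.11). Annotation mir-692-2.5 was steadier still, with 221, 217 and 210 CPM in CD24- and 209, 225 and 201 CPM in CD24+ libraries, and a log2 fold change of -0.03 (SE 0.08). The other windows matched to these genes among the 12 most read, mir-703.3, mir-703.5 and mir-692-1.3, had log2 fold changes of 0.09, 0.20 and 0.06. The values of mir-682.1 were 79.8, 80.4 and 71.1 CPM in CD24- and 77.7, 76.8 and 71.7 CPM in CD24+ libraries, a log2 fold change of -0.03 (SE 0.08). Annotation snmRNA.7.1, in the messenger RNA of the splicing factor Hnrnpc, had 62.2, 55.3 and 61.4 CPM in CD24- and 57.9, 57.3 and 55.7 CPM in CD24+ libraries, a log2 fold change of -0.07 (SE 0.08), and its groups overlapped.

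The snmRNA and LIT classes were dominated by mitochondrial messenger RNA. Annotation snmRNA.1.1 (chrM:5602-5781, mm9) matched mt-Co1, a subunit of cytochrome c oxidase, and LIT3348.1 (chrM:10464-10596) matched mt-Nd4, a subunit of complex I. Windows on chrM held 71.2% of snmRNA reads and 90.4% of LIT reads. The most frequent sense reads of both, and of snmRNA.6.1 in the coding sequence of the ribosomal protein gene Rps27, show coding messenger RNA under noncoding names.
snmRNA.1.1, chrM:5727-5773 (mm9, plus strand): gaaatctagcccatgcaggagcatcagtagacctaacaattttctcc
LIT3348.1, chrM:10542-10588 (mm9, plus strand): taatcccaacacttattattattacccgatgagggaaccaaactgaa
snmRNA.6.1, chr9:114891794-114891840 (mm9, minus strand): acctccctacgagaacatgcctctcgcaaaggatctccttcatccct
The snmRNA.1.1 read alone was counted 5725 times. Annotation snmRNA.1.1 had 880, 916 and 751 CPM in CD24- and 1525, 778 and 814 CPM in CD24+ libraries, so CD24+ replicate 1 stood high and the other 2 lay among the CD24- values. Its log2 fold change of 0.29 (SE 0.22) did not pass the test (adjusted p = 0.315, edgeR with Benjamini-Hochberg adjustment). As a share of chrM reads it was 3.66% ± 0.249 in CD24- and 4.07% ± 0.130 in CD24+ cells (SD, n = 3 each), without overlap (exact permutation p = 0.1, two-sided, the smallest that 3 libraries against 3 can give). LIT3348.1 had 216, 202 and 205 CPM in CD24- and 337, 178 and 164 CPM in CD24+ libraries. Its log2 fold change was 0.12 (adjusted p = 0.691), and without CD24+ replicate 1 it was -0.28 (adjusted p = 0.0187), so this library set the direction. Annotation snmRNA.6.1 had 181, 173 and 170 CPM in CD24- and 312, 175 and 194 CPM in CD24+ libraries (log2 fold change 0.37, adjusted p = 0.120). CD24+ replicate 1 stood far above the other 5 libraries, and without it the log2 fold change of snmRNA.6.1 was 0.08 (adjusted p = 0.446), while without CD24+ replicate 2 it was 0.53 (adjusted p = 0.0270).

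The total shares of the 3 classes overlapped between the groups. MicroRNA annotations took 0.138%, 0.126% and 0.116% of mapped reads in CD24- replicates 1 to 3 and 0.159%, 0.168% and 0.137% in CD24+ replicates 1 to 3, with the lowest CD24+ library just under the highest CD24- library. The means were 0.127% ± 0.0107 and 0.155% ± 0.0158 (SD, n = 3 each, exact permutation p = 0.2). Leaving out mir-689, whose windows lie in rRNA, the means were 0.104% ± 0.00876 and 0.106% ± 0.00601 (exact permutation p = 0.9, n = 3 each). The snmRNA share was 0.126%, 0.127% and 0.112% in CD24- and 0.200%, 0.113% and 0.118% in CD24+ libraries, and only CD24+ replicate 1 stood apart. The log2 ratio of the snmRNA shares was 0.20, and -0.07 without that library. The LIT share was 0.0257%, 0.0249% and 0.0244% in CD24- and 0.0385%, 0.0222% and 0.0206% in CD24+ libraries, a log2 ratio of 0.06. Without CD24+ replicate 1 the ratio was -0.23, and the groups no longer overlapped. Counting each distinct sequence once it was 0.27, higher in CD24+ and also without overlap (exact permutation p = 0.1). That count gives little weight to the 19750 reads of LIT3348.1, with 176 distinct sequences. It gives more weight per read to LIT1829.1, with 877 for 1066 reads. Leaving out annotations on chrM, the LIT share was 0.00196% ± 0.000232 in CD24- and 0.00254% ± 0.000114 in CD24+ cells (SD, n = 3 each), higher in CD24+ without overlap (log2 ratio 0.38, exact permutation p = 0.1). That difference rested on LIT1829.1, described later, and without it the remaining LIT share was lower in every CD24+ library (log2 ratio -0.30, exact permutation p = 0.1). Without chrM the snmRNA share had a log2 ratio of 0.14 with overlap (exact permutation p = 0.5).

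**Figure D2:**
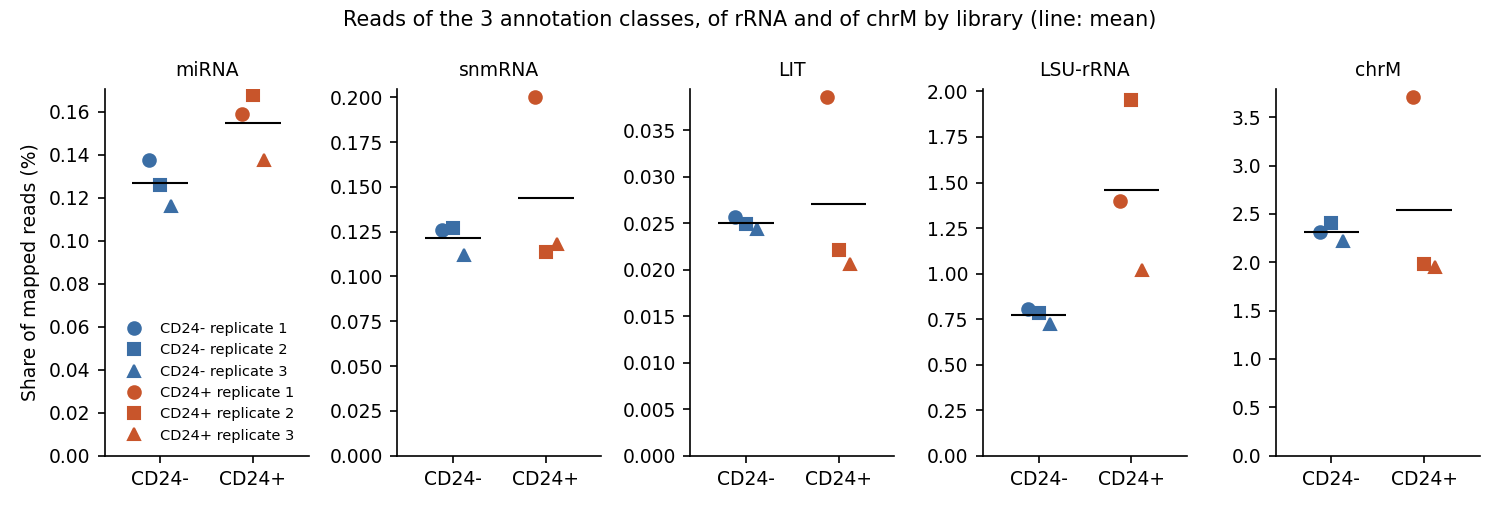
Share of mapped reads (%) by library for the microRNA, snmRNA and LIT annotations, the large-subunit rRNA annotation and chrM, with CD24- and CD24+ libraries in separate columns, 1 symbol per replicate and a line at the mean. CD24+ replicate 1 is highest in snmRNA, LIT and chrM (3.70% on chrM), and all 3 CD24+ libraries lie above the CD24- libraries in rRNA.

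Between the groups, 12 of the 59 tested annotations passed an adjusted p of 0.05, or 20.3%, against 44.3% of all 11868 annotations tested. Higher in CD24+ cells were 7 of the 59 (11.9%), against 20.8% of all annotations tested, and lower were 5 (8.47%), against 23.6%. Of the 12, mir-142.1 and snmRNA.69.1 passed the filter on low counts only through the group in which they were high (all 3 libraries at 0.74 CPM or more there, but not in the other group), so they had to differ to be tested, and 10 did not depend on this. Counting each distinct sequence once left 3 of the 12 called, snmRNA.24.1, snmRNA.69.1 and LIT1829.1, while mir-142.1 was too low to be fitted. A short window holds few distinct 47-nt sequences, so this setting can miss a change where each sequence has many reads. The 37059 reads of mir-689-1.2 had 270 distinct sequences, against 877 for the 1066 reads of LIT1829.1 and 129 for the 386 of snmRNA.24.1. By class, 4 of 31 microRNA, 6 of 21 snmRNA and 2 of 7 LIT annotations passed. The values of the 2 groups did not overlap for 17 of the 59 (28.8%), against 56.3% of all annotations tested. The median log2 fold change was 0.04 over the 59 and -0.03 over all annotations tested. The log2 fold changes of the other 47 ran from -0.77 (snmRNA.17.1, 70 reads) to 0.55 (mir-805.1). Annotation snmRNA.17.1 passed the filter on low counts only through the CD24- libraries, so its value is a description.

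**Figure D3:**
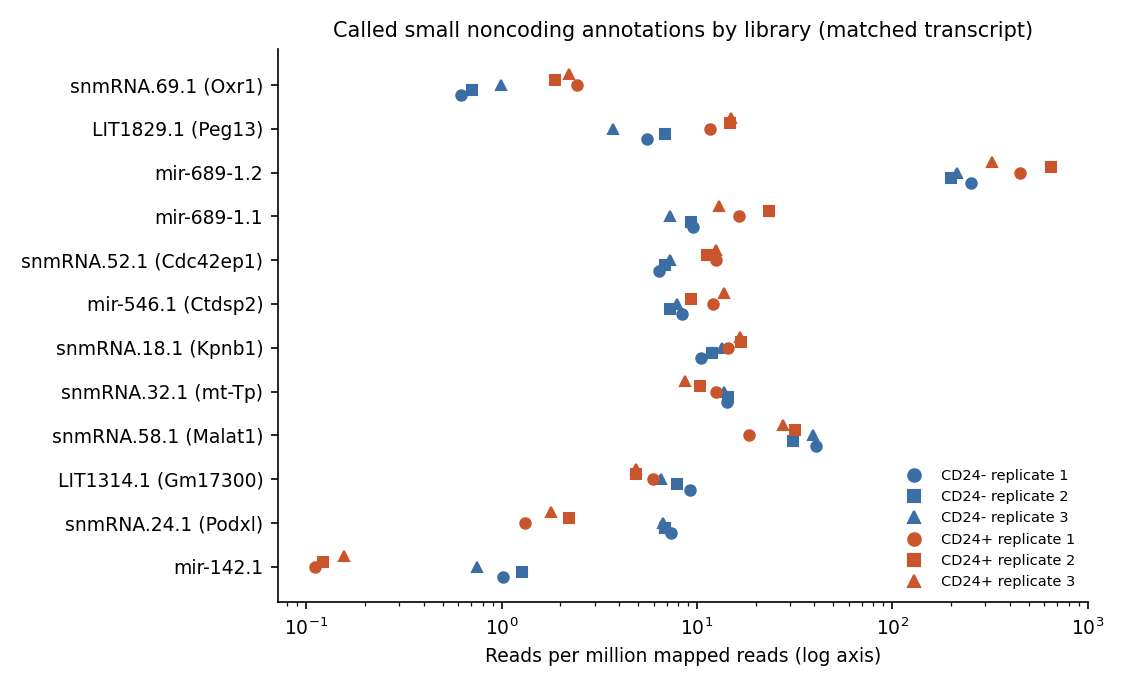
CPM on a log axis for the 12 called annotations, 1 point per library, with the matched transcript in brackets (32.6% of reads for mt-Tp) and rows ordered by log2 fold change from -2.85 (mir-142.1, bottom) to 1.47 (snmRNA.69.1, top). The groups are apart in every row except snmRNA.58.1.

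Annotation mir-142.1 (chr11:87570320-87570467, mm9) was lower in CD24+ cells, and its reads matched no messenger RNA. In mammals miR-142 is known as a microRNA of blood cells. The hairpin gives 2 mature strands, and both were covered by reads. They are printed here with seeds in capitals, followed by a read that holds each (counted 3 times for 5p and 1 time for 3p), with the mature part in capitals, since the reads show flanking sequence on both sides.
miR-142a-5p: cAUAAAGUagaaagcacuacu
miR-142a-3p: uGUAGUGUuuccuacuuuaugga
read over miR-142a-5p, chr11:87570353-87570399 (mm9, plus strand): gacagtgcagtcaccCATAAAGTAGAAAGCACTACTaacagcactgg
read over miR-142a-3p, chr11:87570389-87570435 (mm9, plus strand): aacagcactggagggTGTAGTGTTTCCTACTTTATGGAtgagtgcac
Of its 48 reads, 15 held the 5p and 13 the 3p sequence, while 1 read lay wholly inside the 64-base hairpin. CD24- replicates 1 to 3 had 13, 18 and 9 reads, and CD24+ replicates 1 to 3 had 1, 3 and 4. These are 1.01, 1.27 and 0.745 CPM against 0.111, 0.122 and 0.156 CPM, with no overlap. The log2 fold change was -2.85 (SE 0.43, adjusted p = 0.000431 from edgeR), or 7.21-fold lower in CD24+ cells. As it passed the filter on low counts only because of the CD24- libraries, this p is a description, and the annotation was too low to be fitted without CD24- replicate 2.

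Reads from around mir-142 were also fewer in CD24+ libraries. Unannotated reads within 1000 bases of the window numbered 139, 158 and 117 in CD24- and 4, 63 and 65 in CD24+ libraries, with means ± SD of 10.5 ± 0.757 and 1.85 ± 1.22 CPM (n = 3 each). Reads matching Mir142hg, the annotated host transcript of miR-142, numbered 28, 32 and 25 in CD24- and 2, 8 and 13 in CD24+ libraries. Both sets were lower in every CD24+ library than in any CD24- library (exact permutation p = 0.1 each, the smallest possible). Of the 5 immune markers, 4 have a row. Ptprc, the pan-leukocyte gene, was at 0 in 5 libraries and at 0.0778 CPM in the sixth, and Lyz2 and Cd79a had at most 0.281 CPM. Cd68, a lysosomal protein of macrophages that other cells also make, fell from 47.8 ± 13.8 to 5.88 ± 0.814 CPM (SD, n = 3 each), by 3.05 on the log2 scale (adjusted p = 2.46e-06, edgeR). The summed level of the listed markers was 32.0 to 56.9 CPM in CD24- and 5.14 to 6.74 CPM in CD24+ libraries. The part of such cells in the mir-142.1 result was not tested.

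The other 3 called microRNA annotations rose in CD24+ cells. Both mir-689 windows lie among reads annotated as large-subunit rRNA. Annotation mir-689-1.2 (chr16:11144087-11144286, mm9) had 252, 200 and 214 CPM in CD24- and 452, 650 and 326 CPM in CD24+ libraries, without overlap. The rise was 1.1 on the log2 scale (SE 0.21, adjusted p = 0.00167), and counting each distinct sequence once the value was -0.07 (adjusted p = 0.867). Annotation mir-689-1.1 (chr1:169270533-169270664, mm9) had 9.59, 9.29 and 7.29 CPM in CD24- and 16.4, 23.5 and 12.9 CPM in CD24+ libraries, a log2 fold change of 1.01 (SE 0.22, adjusted p = 0.00369), and counting each distinct sequence once 0.08 (adjusted p = 0.904). The windows held 270 and 27 distinct sequences for 37059 and 1398 reads, so counting sequences once cannot show a change in reads per sequence. The most frequent read of mir-689-1.2, counted 2780 times, is shown because it identifies the window.
mir-689-1.2, chr16:11144096-11144142 (mm9, plus strand): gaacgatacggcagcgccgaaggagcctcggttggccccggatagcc
Around mir-689-1.2, 49501 reads within 1000 bases carried the large-subunit rRNA annotation, at 301 ± 25.3 CPM in the CD24- and 631 ± 219 CPM in the CD24+ group (SD, n = 3 each). As a percentage of all large-subunit rRNA reads, mir-689-1.2 stood at 2.88 ± 0.297 in CD24- and 3.25 ± 0.0731 in CD24+ cells and mir-689-1.1 at 0.113 ± 0.0104 and 0.121 ± 0.00472 (SD, n = 3 each). The log2 differences of these ratios were 0.18 and 0.10, against 0.87 for large-subunit rRNA itself. The groups did not overlap in the ratio of mir-689-1.2 (exact permutation p = 0.1) and overlapped in that of mir-689-1.1 (exact permutation p = 0.4). Libraries made from messenger RNA keep a variable remainder of rRNA, and its part in the mir-689 result cannot be told apart from the groups.

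The called annotation mir-546.1 (chr10:126435450-126435661, mm9) covers part of the 3′ untranslated region of Ctdsp2, a small phosphatase of RNA polymerase II. It had 8.34, 7.32 and 7.95 CPM in CD24- and 12.2, 9.38 and 13.8 CPM in CD24+ libraries, without overlap, and rose by a log2 fold change of 0.58 (SE 0.17, adjusted p = 0.0174). Ctdsp2 under its own symbol rose by 0.33 (SE 0.10, adjusted p = 0.0211). The log2 ratio of mir-546.1 to the other Ctdsp2 reads differed between the groups by 0.24 (exact permutation p = 0.3). Without CD24- replicate 2 or CD24+ replicate 3 the mir-546.1 call was lost (adjusted p = 0.0637 and 0.0903). Without CD24- replicate 3 or CD24+ replicate 3 that of Ctdsp2 was lost (adjusted p = 0.0533 and 0.0939).

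Among snmRNA annotations, the one with the largest change was snmRNA.24.1, which lies in the 3′ untranslated region of Podxl, a cell-surface sialomucin of podocytes and endothelium. Annotation snmRNA.24.1 (chr6:31471930-31472108, mm9) had 7.41, 6.90 and 6.71 CPM in CD24- and 1.33, 2.20 and 1.79 CPM in CD24+ libraries. The groups lay far apart, with a log2 fold change of -1.92 (SE 0.20, adjusted p = 3.55e-05), or 3.77-fold lower in CD24+ cells. Other reads of Podxl read 296, 296 and 294 CPM in CD24- and 70.9, 87.9 and 69.7 CPM in CD24+ libraries. Podxl under its own symbol had a log2 fold change of -1.96 (SE 0.10, adjusted p = 3e-07), and the log2 ratio of snmRNA.24.1 to the other Podxl reads differed between the groups by -0.03 (exact permutation p = 1). The window and the rest of the messenger RNA fell by nearly the same amount.

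The 3 snmRNA annotations that were higher in CD24+ cells all lie in 3′ untranslated regions. Annotation snmRNA.69.1 (chr15:41692278-41692423, mm9) belongs to Oxr1, an oxidation resistance gene, and had 0.624, 0.704 and 0.994 CPM in CD24- and 2.43, 1.88 and 2.22 CPM in CD24+ libraries. Its log2 fold change of 1.47 (SE 0.28, adjusted p = 0.00200) is given as a description, since only its CD24+ libraries took it past the filter. Oxr1 under its own symbol rose by 1.06 on the log2 scale (SE 0.10, adjusted p = 1.25e-05). Annotation snmRNA.52.1 (chr15:78680972-78681189, mm9) belongs to Cdc42ep1, an effector of the small GTPase Cdc42. It had 6.39, 6.90 and 7.29 CPM in CD24- and 12.5, 11.3 and 12.6 CPM in CD24+ libraries, a log2 fold change of 0.82 (SE 0.13, adjusted p = 0.000660), and Cdc42ep1 rose by 0.63 (SE 0.09, adjusted p = 0.000244). The log2 ratio of window to transcript differed by 0.18 for snmRNA.52.1, with no overlap between the groups (exact permutation p = 0.1). For snmRNA.69.1 it differed by 0.38 (exact permutation p = 0.2), also a description, since the filter took this window through its CD24+ libraries.

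Annotation snmRNA.18.1 (chr11:97022800-97023007, mm9) belongs to Kpnb1, the nuclear import receptor importin beta, and had 10.5, 11.9 and 13.4 CPM in CD24- and 14.4, 16.8 and 16.6 CPM in CD24+ libraries. The log2 fold change was 0.43 (SE 0.13, adjusted p = 0.0217), while Kpnb1 had 0.11 (SE 0.11, adjusted p = 0.446). The log2 ratio of snmRNA.18.1 to the other Kpnb1 reads was -5.87, -5.70 and -5.82 in CD24- and -5.52, -5.54 and -5.41 in CD24+ libraries. The difference was 0.30 without overlap (exact permutation p = 0.1). It lies between those of snmRNA.52.1 and snmRNA.69.1, the latter a description because of the filter. The call was lost without CD24- replicate 1 (adjusted p = 0.103), CD24- replicate 2 (0.0644), CD24+ replicate 2 (0.0640) or CD24+ replicate 3 (0.0785).

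The remaining 2 snmRNA annotations that fell were Malat1 and a mitochondrial window. Annotation snmRNA.58.1 lies in Malat1, an abundant nuclear long noncoding RNA, and its most frequent sense read is shown as an example of such a stretch.
snmRNA.58.1, chr19:5796550-5796596 (mm9, minus strand): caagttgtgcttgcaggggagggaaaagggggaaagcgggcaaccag
The whole window (chr19:5796447-5796717, mm9) had 40.7, 31.0 and 39.5 CPM in CD24- and 18.6, 31.6 and 27.5 CPM in CD24+ libraries, and the groups overlapped. The log2 fold change was -0.49 (SE 0.17, adjusted p = 0.0433). The call was lost without CD24- replicate 1 (adjusted p = 0.132), CD24- replicate 3 (0.0903), CD24+ replicate 1 (0.0900) or CD24+ replicate 3 (0.0836), and also with TMM scaling factors (0.0509). Other Malat1 reads stood at 1141, 960 and 1211 CPM in CD24- and 533, 991 and 904 CPM in CD24+ libraries, with overlap. The second Malat1 window, snmRNA.38.1, had a log2 fold change of -0.30 (SE 0.20, adjusted p = 0.247).

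Annotation snmRNA.32.1 (chrM:15322-15506, mm9) had 14.3, 14.5 and 13.7 CPM in CD24- and 12.5, 10.4 and 8.72 CPM in CD24+ libraries, without overlap. Of its reads, 32.6% matched the mitochondrial proline tRNA gene mt-Tp and the rest no transcript. The log2 fold change was -0.46 (SE 0.14, adjusted p = 0.0260). As a share of chrM reads it was 0.0614% ± 0.00104 in CD24- and 0.0436% ± 0.00943 in CD24+ cells (SD, n = 3 each, exact permutation p = 0.1). The call was lost without CD24- replicate 1 (adjusted p = 0.0781), CD24- replicate 2 (0.0771), CD24+ replicate 2 (0.0560) or CD24+ replicate 3 (0.115). LIT3345.1 (chrM:15380-15524) and LIT3347.1 (chrM:15627-15771), in the same stretch of chrM, had log2 fold changes of -0.43 (adjusted p = 0.0587) and -0.25 (adjusted p = 0.293). As shares of chrM reads both were lower in every CD24+ library than in any CD24- library, with log2 differences of -0.48 and -0.30. In contrast, mir-805.1 (chrM:16069-16253) had 3.90, 3.31 and 2.82 CPM in CD24- and 6.63, 4.28 and 4.36 CPM in CD24+ libraries, a log2 fold change of 0.55 (adjusted p = 0.0739).

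The 2 called LIT annotations were long noncoding transcripts that have no row under their own symbols. LIT1829.1 (chr15:72636033-72640625, mm9) is Peg13, an imprinted transcript from an intron of Trappc9, and 1065 of the 1154 reads that match Peg13 carried this annotation. LIT1314.1 (chr4:131907848-131908202, mm9) matched Gm17300 with all 609 of its reads and Snhg3, a snoRNA host gene on the opposite strand, with 552, and without strand information the 2 cannot be told apart. One read of each, in sense to Peg13 and to Gm17300, is shown because the annotation names do not identify them.
LIT1829.1, chr15:72639371-72639417 (mm9, minus strand): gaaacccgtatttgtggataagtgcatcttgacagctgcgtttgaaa
LIT1314.1, chr4:131908054-131908100 (mm9, plus strand): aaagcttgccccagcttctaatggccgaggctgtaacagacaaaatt
LIT1829.1 had 5.54, 6.90 and 3.73 CPM in CD24- and 11.6, 14.8 and 14.9 CPM in CD24+ libraries, with a wide gap between the groups. It rose 2.57-fold (log2 fold change 1.36, SE 0.20, adjusted p = 0.000390). LIT1314.1 had 9.20, 7.95 and 6.54 CPM in CD24- and 5.97, 4.85 and 4.90 CPM in CD24+ libraries, and fell by 0.62 on the log2 scale (SE 0.18, adjusted p = 0.0167). The call was lost without CD24- replicate 1 (adjusted p = 0.0911), CD24- replicate 2 (0.0509), CD24+ replicate 2 (0.0529) or CD24+ replicate 3 (0.0651). Other reads of Gm17300 were at 15.3, 14.7 and 10.6 CPM in CD24- and 4.20, 6.32 and 5.88 CPM in CD24+ libraries. The log2 ratio of LIT1314.1 to them differed by 0.72 without overlap (exact permutation p = 0.1), the largest such difference of all pairs of window and transcript, as the other reads were lower by 1.31 on the log2 scale. All Snhg3 reads together were at 15.4, 15.1 and 9.94 CPM in CD24- and 8.07, 7.30 and 6.97 CPM in CD24+ libraries, without overlap.

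Across the tested annotations, 51 could be set against other reads of the transcript they matched (41 genes). The annotation and the transcript differed between groups by a median of 0.13 on the log2 scale, and by under 0.5 for 47 of the 51. In all 8 called pairs annotation and transcript had the same direction, for Peg13 on 89 other reads. Of these, snmRNA.69.1 passed the filter on low counts only through the CD24+ libraries, so it had to be higher there to be tested. The other reads of Kpnb1, Malat1 and Peg13 overlapped between the groups. The differences of annotation and transcript correlated across the 51 pairs with Pearson's r = 0.866 and Spearman's rho = 0.774, a description over pairs that share libraries and in part genes. With no difference between groups, 3 libraries against 3 separate with a probability of 0.1 for each pair, and no share over other annotations was computed. The ratio groups did not overlap for 10 of the 51 pairs. Among these was snmRNA.86.1 in the 3′ untranslated region of Ppid, a cyclophilin. It had a log2 fold change of -0.16 (adjusted p = 0.523) while Ppid fell by 0.64 on the log2 scale (adjusted p = 9.76e-05). For Rps27 the symbol and the window were opposite. The symbol had a log2 fold change of -0.72 (adjusted p = 0.0484), a call lost without any 1 library other than CD24- replicate 2 (0.0760 to 0.237), and snmRNA.6.1, on chromosome 9, had 0.37. The reads of snmRNA.6.1 match Rps27 and its copy Rps27rt equally well. All other reads that match Rps27 transcripts stood at 108 ± 5.51 and 146 ± 53.0 CPM (SD, n = 3 each), a log2 difference of 0.37, with overlap.

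**Figure D4:**
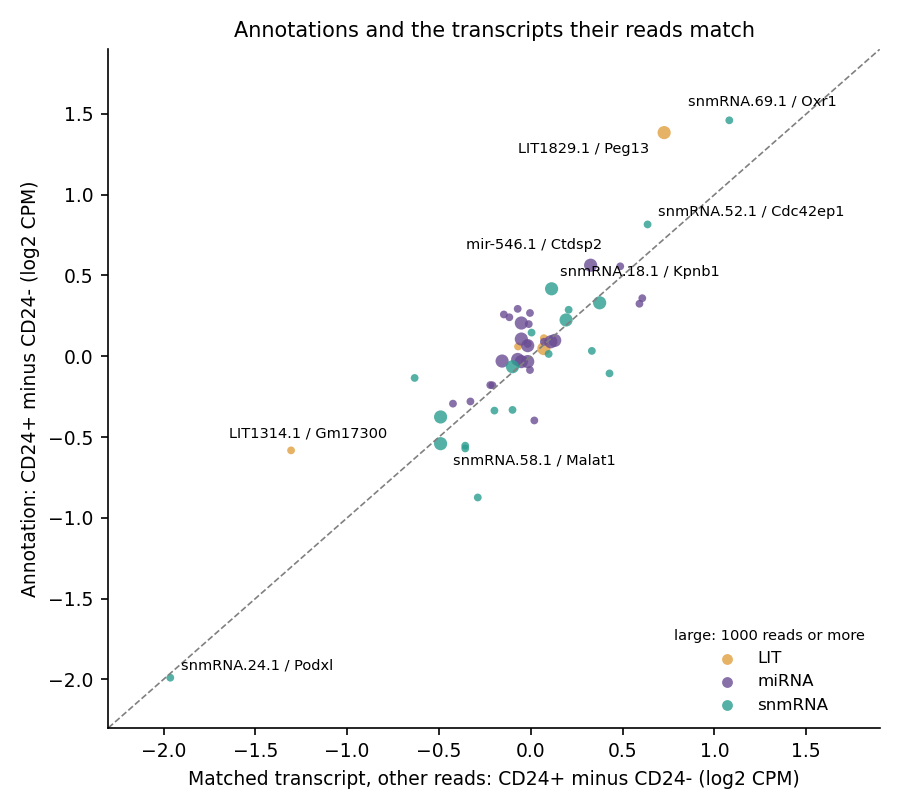
Difference between CD24+ and CD24- cells (mean log2 CPM) of 51 annotations on the vertical axis against that of the other reads of the transcript they match on the horizontal axis, with large points for 1000 reads or more, colour for the class and a dashed line of equality. Called pairs are named, and they run from snmRNA.24.1 with Podxl (-1.99 and -1.96) to snmRNA.69.1 with Oxr1 (1.46 and 1.08). Furthest from the line among the called pairs are LIT1314.1 with Gm17300 (-0.58 and -1.31) and LIT1829.1 with Peg13 (1.38 and 0.73). Annotation snmRNA.69.1 passed the filter on low counts only through the CD24+ libraries.

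MicroRNAs known for roles in mammary and tumour cells were barely covered. The 40 annotations that fell into 1 of the listed families had 285 reads in all 6 libraries, none was tested, and the families of mir-15 and mir-16, mir-30, mir-34 and the Dlk1-Dio3 cluster had no annotated window with a read. By sequence, Dleu2, the host of mir-15a and mir-16-1, stood at 19.9 ± 2.20 and 17.4 ± 1.40 CPM and Rian, a long transcript of the Dlk1-Dio3 cluster, at 18.5 ± 2.66 and 15.9 ± 2.08 CPM in CD24- and CD24+ cells (SD, n = 3 each), both with overlap. Of the other transcripts of that cluster, Meg3 had 13 reads and Mirg 4 in all 6 libraries. No host of mir-30 or mir-34 was measured. The mir-17-92 family with its paralogues, known for promoting growth, had 1.25, 1.13 and 1.41 CPM in CD24- and 0.663, 0.367 and 0.584 CPM in CD24+ libraries, 79 reads in total, without overlap (log2 difference -1.23, exact permutation p = 0.1). Its member with the most reads, mir-25.1 with 23, matched Mcm7 and stood at 0.205 ± 0.0465 and 0.245 ± 0.0958 CPM (SD, n = 3 each), with overlap. The next, mir-92a-1.1 with 19 reads, matched Mir17hg and stood at 0.357 ± 0.106 and 0.0655 ± 0.0807 CPM, without overlap. Reads of Mir17hg, the host transcript of mir-17 to mir-92a-1, were 8.81, 9.92 and 9.44 CPM in CD24- and 2.87, 4.77 and 4.36 CPM in CD24+ libraries, also without overlap (log2 difference -1.25, exact permutation p = 0.1). The mir-23, mir-24 and mir-27 group had 0.858, 0.633 and 1.49 CPM against 0.111, 0.571 and 0.506 CPM, from 66 reads, 34 of them of mir-24-2.1. The let-7 family, which restrains growth and stem cell genes, had 41 reads with mir-98 and overlapping groups (exact permutation p = 0.6). The mir-200 group of epithelial microRNAs had 2 reads, mir-29 had 10, an X-linked cluster 8, and the Sfmbt2 cluster and the H19 and Mest pair 1 each. Over 11 annotations of mesenchymal microRNAs, 36 of 77 reads were those of mir-22.1, and the groups overlapped (exact permutation p = 0.2). These counts are of longer RNAs whose reads were mapped to the annotated windows and say nothing of mature levels.

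The genes of small RNA processing were mostly lower in CD24+ cells. Of 27 tested genes of this list, 15 fell and 2 rose, so 63.0% passed, against 44.3% of all annotations tested, and the median log2 fold change was -0.34. Over all annotations tested, 23.6% were called lower and 20.8% higher, with a median of -0.03. Drosha (listed as Rnasen) had 50.1, 47.3 and 52.5 CPM in CD24- and 49.6, 59.2 and 56.6 CPM in CD24+ libraries, with overlap (log2 fold change 0.15, adjusted p = 0.218), and Dgcr8 had a log2 fold change of -0.05 (adjusted p = 0.769). Dicer1 fell, from 89.2, 88.2 and 100.03 CPM in CD24- to 55.5, 76.9 and 66.7 CPM in CD24+ libraries, with no overlap (log2 fold change -0.47, SE 0.12, adjusted p = 0.00785). All 4 Argonaute genes, which hold the mature strand, fell, Ago3 (Eif2c3) only just under the threshold (log2 fold change -0.41, adjusted p = 0.0495). Ago4 (Eif2c4), which passed the filter on low counts only through the CD24- libraries and so had to differ, was at 2.11, 1.9 and 1.33 CPM in CD24- and 0.111, 0.489 and 0.817 CPM in CD24+ libraries (log2 fold change -1.67, SE 0.41, adjusted p = 0.00775, a description). Ago2 (Eif2c2), the slicing Argonaute, fell by 0.50 on the log2 scale (adjusted p = 0.00269). Prkra, a partner of Dicer1, rose most, with a log2 fold change of 0.47 (adjusted p = 0.0234), and its call was lost without CD24- replicate 2 (adjusted p = 0.0812), CD24- replicate 3 (0.0506), CD24+ replicate 2 (0.0590) or CD24+ replicate 3 (0.1). With the replicate block it was also lost (0.0630). The count of called genes fell from 17 to 11 without CD24- replicate 1, to 10 without CD24- replicate 2 and to 7 when each distinct sequence was counted once.

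**Figure D5:**
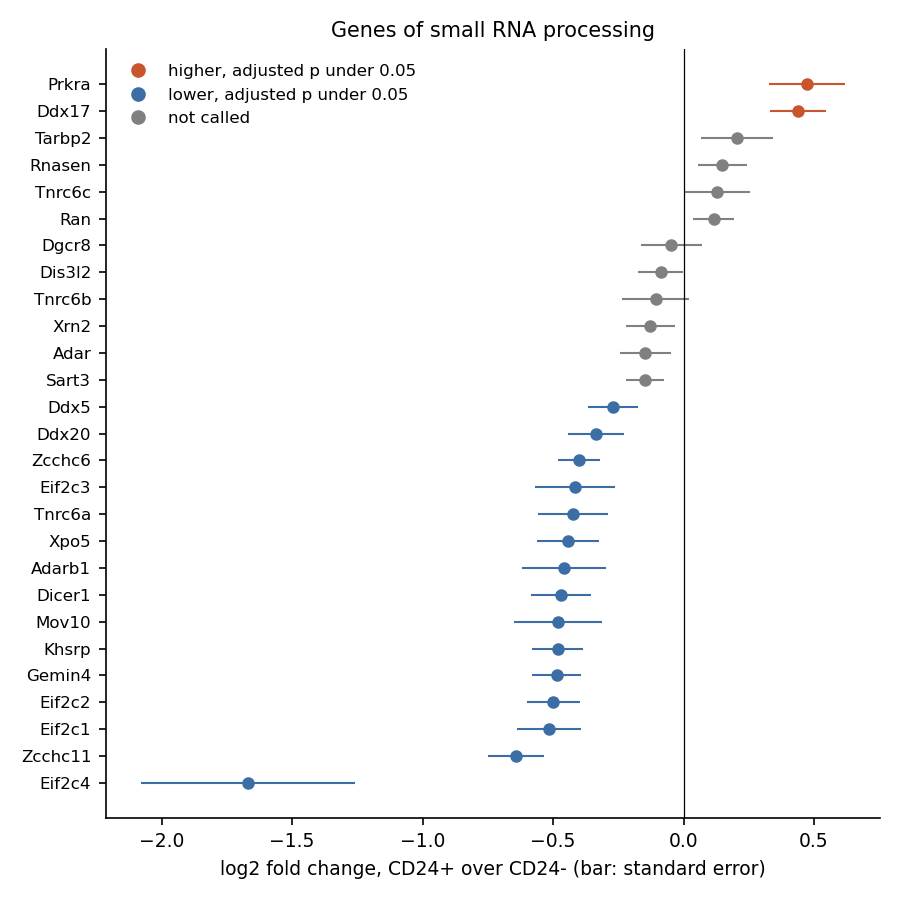
Log2 fold change (CD24+ over CD24-) with its SE for 27 genes of small RNA processing, ordered by size, with genes that passed an adjusted p of 0.05 coloured by direction. The 15 genes that fell include Dicer1 and the 4 Argonautes (Eif2c1 to Eif2c4), while Rnasen (Drosha) and Dgcr8 are grey.

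Of 32 tested genes for proteins of snoRNA and spliceosomal particles, 10 fell and 2 rose (37.5%, against 44.3% of all). Nolc1, a chaperone of snoRNA particles, fell most, at 175, 185 and 203 CPM in CD24- and 96.7, 145 and 114 CPM in CD24+ libraries (log2 fold change -0.66, SE 0.13, adjusted p = 0.00267). Larp7, which binds the 7SK RNA, rose by 0.34 (adjusted p = 0.0168), a call lost without CD24- replicate 1 (0.0875), CD24- replicate 2 (0.0639), CD24+ replicate 2 (0.0531) or CD24+ replicate 3 (0.0606). The count of called genes fell from 12 to 6 without CD24- replicate 1, to 7 without CD24- replicate 2, to 5 without CD24+ replicate 3 and to 4 when each distinct sequence was counted once. Among 8 tested snoRNA host genes with a symbol, 3 fell and none rose (37.5%, against 44.3% of all), and Ncl, the nucleolar protein nucleolin, fell most by 0.52 (adjusted p = 0.0140, and 0.0545 without CD24+ replicate 3).

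A further 12 snoRNA host genes have no symbol among the annotations, and 9 of them were found by the sequences of their transcripts. In 6 the CPM of the groups did not overlap and were lower in CD24+ cells, in 1 higher, and in 2 the groups overlapped, against 56.3% without overlap over all annotations tested. The 6 include Snhg3, of whose 963 reads 552 are those of LIT1314.1, which may belong to Gm17300. Gas5, a noncoding host of many snoRNAs known for growth arrest, differed most, at 169, 163 and 188 CPM in CD24- and 56.7, 76.7 and 73.9 CPM in CD24+ libraries (log2 difference -1.34, exact permutation p = 0.1). Snhg1 stood at 83.0, 77.2 and 81.2 against 43.3, 49.2 and 45.4 CPM. Snhg12 was the one that was higher, at 7.41, 6.61 and 7.54 against 15.1, 8.36 and 9.85 CPM. None of the 22 listed long noncoding transcripts has a symbol row. By sequence, 13 had 100 reads or more, of which 3 were lower and 2 higher without overlap. Rn7sk, the 7SK RNA, was higher, at 1.17, 0.985 and 0.994 against 2.54, 8.36 and 2.10 CPM, with CD24+ replicate 2 far above the others.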

How the data were processed

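The labels assign 3 libraries to CD24- and 3 to CD24+ Mvt1 cells, each from a separate plate according to the study's methods. The authors prepared TruSeq v2 libraries, sequenced single-end reads, trimmed them to 47 nt, collapsed identical reads, mapped each sequence exactly to the mouse genome and gave it 1 location and 1 annotation by a hierarchy. The deposited counts of each sequence are raw and not pooled. The submitters' processing notes name mm9, and coordinates here are in that build. The aligner is not given in the sources used here. Exact mapping omits reads across exon junctions and reads with a variant. The hierarchy decides whether a messenger RNA read mapped to a microRNA window is counted under the gene or the microRNA name.

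Counts were summed per annotation and scaled to all mapped reads. After a low-count filter (filterByExpr), differences were fitted in edgeR 4.0.16 (quasi-likelihood F test, Benjamini-Hochberg adjustment over 11868 annotations, threshold 0.05) in R 4.3.3. The procedure was also run on simulated counts with fewer changes, larger than most here, which does not check it for changes of this size. P-values measure the spread between plates. Shares, ratios and transcripts found by sequence were compared by two-sided exact permutation tests of 3 libraries against 3, which cannot go below 0.1. Log ratios added 0.5 reads to each count. Reads were matched to GENCODE M21 transcripts on both strands, without use of their coordinates. Reads annotated to nothing took 16.9% to 20.2% of a library and stayed in the library totals.

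Named were the 12 annotations with the most reads, all called members, the host or matched gene of each, the most-read member of a family, and in each gene list the largest called rise and fall with Drosha, Dgcr8 and Dicer1. Transcripts found by sequence, snmRNA.86.1, snmRNA.38.1, Ago2, Ago3, the chrM windows and single markers were named after their values were seen. Members, families and gene lists were chosen with earlier results of these data known. Alternatives were TMM factors, gene reads as total, DESeq2 1.42.0, other filters, each sequence counted once, a replicate block and each library left out. A total without rRNA, the microRNA share without mir-689 and shares without chrM, for LIT also without LIT1829.1, were added after seeing the data.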

Additional observations from a re-analysis of the deposited data

How the results depend on the processing

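Of 115 recomputed counts and shares, 91 stayed within 1.5 times the reported count or, for shares, within 1 SD of the reported log2 ratio. That SD was the larger of the 2 group SDs of the log2 shares, 0.457 for snmRNA and 0.494 for LIT. The changes of sign of these 2 ratios without CD24+ replicate 1 are therefore among the 91. Of the other 24, 7 moved when each distinct sequence was counted once: called annotations went from 12 to 3, microRNA from 4 to 0, snmRNA from 6 to 2, LIT from 2 to 1, processing genes from 17 to 7 and snoRNA and spliceosomal particle genes from 12 to 4, the log2 ratio of the microRNA share from 0.29 to -0.0537. In the same setting the single value of mir-689-1.2 turned to -0.0679. This setting disregards the number of reads per sequence, so it cannot follow abundance in short windows with many reads. The cause of these shifts was not tested. The microRNA share ratio was 0.0397 without its most abundant annotation and 0.0277 without mir-689. Leaving out 1 library gave 7 to 14 called annotations, 2 to 4 microRNA, 3 to 6 snmRNA, 1 to 5 LIT, 10 to 14 processing genes and 5 to 11 particle genes, and a log2 fold change of -0.279 (without CD24+ replicate 1) to 0.305 for LIT3348.1.

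Same-numbered libraries did not deviate together (correlations 0.00605, -0.264 and -0.288), and the numbers were not used as pairs. The sources do not say whether same-numbered plates were handled together, and these correlations cannot settle it. With the replicate block, 11 annotations, 4 microRNA, 5 snmRNA and 2 LIT, stayed called. Of 669 values of named annotations and genes, 605 kept their side of the threshold and, where called, their direction, 60 lost and 2 gained a call, and the 2 above (mir-689-1.2 and LIT3348.1) reversed. TMM factors shifted the median log2 fold change by 0.04 and moved the share of higher calls from 46.9% to 52.4%, and counting sequences once to 61.2%. The 147 untested annotations had at most 63 reads each.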
